A study of Homo sapiens with 2 samples.

Results

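Human chromosome 19 held 3511 of the 47810 peaks called with S9.6, an antibody against RNA-DNA hybrids, in wild-type A549 cells. The members were all peaks of the deposited list whose sequence name was 19, with no further selection by height, width or place. They came from 1 CUT&Tag library, in which the antibody tethers a transposase that cuts and tags the DNA around it. A549 is an established human lung cancer line, and the cells carried no treatment or genetic change in the labels. The 2 libraries of the series used S9.6 and non-specific IgG, of which the latter was not used here. There was no replicate, so nothing was tested, intervals of shares are 95% Wilson intervals, intervals of density ratios are 95% log-scale Poisson intervals, both cover counting error only, and hybrid-dependent tagging was not separated from other tagging.

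R-loops form when a new transcript pairs with its DNA template and leaves the other DNA strand unpaired. They are known to be frequent at CpG-rich promoters and at transcription ends of active genes, and S9.6 is the usual reagent for mapping them. Chromosome 19 is the most gene-dense human chromosome and is rich in GC and CpG islands. It also carries the largest families of KRAB zinc finger genes, whose products repress transposable elements, and tandem clusters of immune receptor, kallikrein, CEACAM, cytochrome P450 and microRNA genes.

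Promoter windows of 5 of the genes with the tallest boundary peaks are shown to make the composition under such peaks visible. Each window lay wholly within the peak, and some genes have further annotated starts. Each sequence is the RefSeq window (GRCh38.p14) from 250 bases before to 50 bases after an annotated gene start, on the plus strand, with CpG dinucleotides in capitals. The coordinates are chr19:42268280-42268579 for CIC, a transcriptional repressor, chr19:44891004-44891303 for TOMM40, the channel of mitochondrial protein import, and chr19:41860005-41860304 for RPS19, a protein of the small ribosomal subunit. They are chr19:49766751-49767050 for AP2A1, a clathrin adaptor subunit, and chr19:49677021-49677320 for PRMT1, an arginine methyltransferase.
CIC: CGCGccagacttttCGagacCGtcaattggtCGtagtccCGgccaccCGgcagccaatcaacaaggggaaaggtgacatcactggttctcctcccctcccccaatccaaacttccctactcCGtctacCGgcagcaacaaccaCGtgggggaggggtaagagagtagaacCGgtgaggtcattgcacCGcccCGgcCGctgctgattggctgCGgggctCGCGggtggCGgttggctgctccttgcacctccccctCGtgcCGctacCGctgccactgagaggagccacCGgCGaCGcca
TOMM40: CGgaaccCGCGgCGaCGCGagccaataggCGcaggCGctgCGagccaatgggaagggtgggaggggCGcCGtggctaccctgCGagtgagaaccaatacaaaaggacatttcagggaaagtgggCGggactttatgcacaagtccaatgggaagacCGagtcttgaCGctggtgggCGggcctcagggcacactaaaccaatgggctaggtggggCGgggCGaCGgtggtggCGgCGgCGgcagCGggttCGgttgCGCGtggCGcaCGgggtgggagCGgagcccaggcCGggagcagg
RPS19: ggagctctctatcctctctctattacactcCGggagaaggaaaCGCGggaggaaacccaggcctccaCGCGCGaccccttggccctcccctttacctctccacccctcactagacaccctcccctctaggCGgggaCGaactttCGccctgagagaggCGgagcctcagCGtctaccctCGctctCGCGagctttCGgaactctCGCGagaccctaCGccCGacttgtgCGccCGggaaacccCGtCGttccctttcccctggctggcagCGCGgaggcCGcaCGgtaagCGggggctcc
AP2A1: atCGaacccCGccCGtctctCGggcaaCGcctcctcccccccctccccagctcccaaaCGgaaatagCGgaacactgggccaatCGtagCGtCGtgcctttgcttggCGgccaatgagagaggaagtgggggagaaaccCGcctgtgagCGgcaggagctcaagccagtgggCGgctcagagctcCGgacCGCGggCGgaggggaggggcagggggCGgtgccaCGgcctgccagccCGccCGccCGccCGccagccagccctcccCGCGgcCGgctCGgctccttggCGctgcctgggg
PRMT1: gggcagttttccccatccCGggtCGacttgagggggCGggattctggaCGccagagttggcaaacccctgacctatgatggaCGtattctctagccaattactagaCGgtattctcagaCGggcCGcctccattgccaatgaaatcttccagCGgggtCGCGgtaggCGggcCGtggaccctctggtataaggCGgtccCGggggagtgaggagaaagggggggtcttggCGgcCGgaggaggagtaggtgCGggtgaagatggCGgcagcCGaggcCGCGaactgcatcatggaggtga

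These windows held 24 (CIC), 30 (TOMM40), 28 (RPS19), 29 (AP2A1) and 22 (PRMT1) CpG dinucleotides. The median was 14 over all 34785 promoter windows of chromosomes 1 to 22 and X. It was 19 over those of chromosome 19 and 26 over those of chromosome 19 with a peak. A further CIC window, chr19:42284219-42284518, had 52 and lay outside the peak. The start of LOC124904724, inside its peak of 17, had 13. The motif CCGCCC, searched on both strands and therefore also read as GGGCGG, occurred in the windows of CIC, TOMM40, AP2A1 and PRMT1. The letters do not occur in the RPS19 window shown, but they do in a second RPS19 window inside the same peak, chr19:41860154-41860453, which has 44 CpG. CCGCCC was found in 44.9% of all promoter windows and in 61.8% of the 1899 windows of chromosome 19. GGGG, which can share bases with GGGCGG, was found in all 5 windows. It was found in 89.7% of all promoter windows and in 97.2% of those of chromosome 19.

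Chromosome 19 was the densest chromosome, with 59.9 peaks per Mb. Chromosome 22 followed with 42.2, chromosome 17 with 40.5 and chromosome 20 with 34.04, while chromosome 13 had the fewest, 4.28 per Mb. The density was 4.21 times that of chromosomes 1 to 18, 20 to 22 and X together (interval 4.07 to 4.36). Chromosome 19 ranked 1 of 23 in covered bases as well, with 48.0 kb of peaks per Mb, but 2 of 23 in summed signal per Mb and in number of peaks. Chromosome 21 had the higher summed signal and chromosome 2 the higher number, 3656 peaks.

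The gene density of chromosome 19 was also the highest, at 24.0 protein-coding genes per Mb. Counted per protein-coding gene, it had 2.49 peaks and ranked 13 of 23, below chromosome 22 with 4.76 and chromosome 20 with 4.08. The ratio to the other chromosomes was 4.21 per Mb and 1.09 per gene. The high density of peaks stood beside a high density of genes, and the part of gene density in it was not tested.

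**Figure D1:**
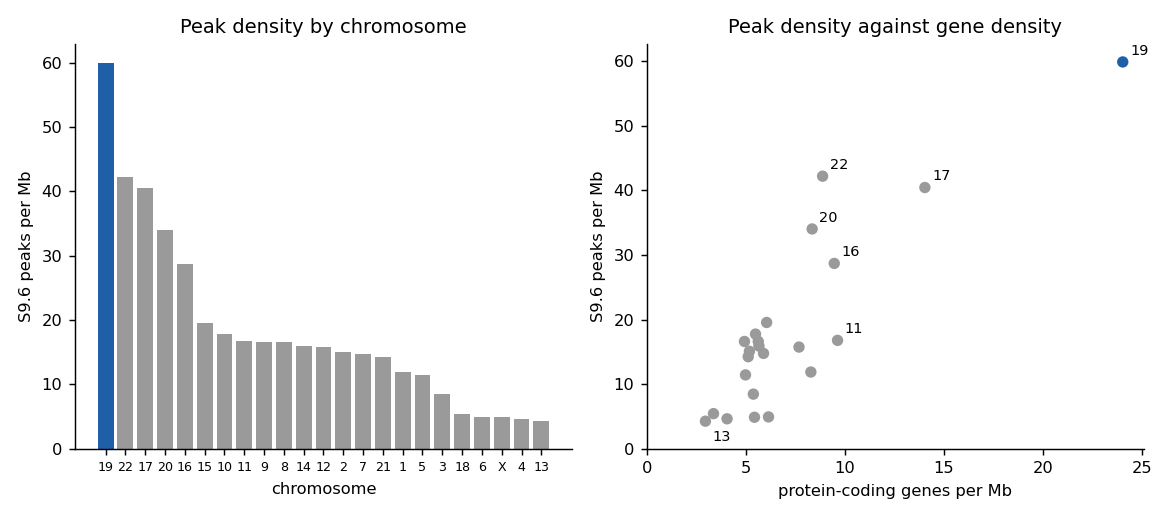
Peaks per Mb for chromosomes 1 to 22 and X, ordered by density (left), and the same values against protein-coding genes per Mb (right), with chromosome 19 in blue. Chromosome 19 is the highest on both axes, at 59.9 peaks and 24.0 protein-coding genes per Mb.

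Single peaks on chromosome 19 were of ordinary width but somewhat higher. Their median width was 693 bp, against 685 bp on the other chromosomes, and 10% were wider than 1207 bp, against 1050 bp. Total signal, the coverage summed over a peak, had a median of 1057 against 982. Maximum coverage, the greatest number of overlapping fragments in a peak, had a median of 3 against 2. The lowest total signal was 745 in both groups. A maximum of 5 or more, called a high peak here, was reached by 15.1% of chromosome 19 peaks and a maximum of 10 or more by 3.30%, or 116 peaks. A maximum of 5 to 9 was reached by 11.8%, against 7.85% elsewhere, and one of 10 or more elsewhere by 1.22%. The highest maximum was 37, the highest total 38954 and the greatest width 6509 bp. Chromosome 19 lacked the extreme values found elsewhere, where the highest maximum was 1953.

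Peaks were unevenly spaced. The median gap between neighbours was 5.67 kb, and 47.0% of gaps were 5 kb or shorter. The longest stretch without a peak, 0.813 Mb at chr19:20480569-21293336, lay among zinc finger genes of the short arm.

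Both arms had a similar gene density but differed in peaks. The longest stretch with neither protein-coding nor lncRNA genes, chr19:24179012-27681071, contains the centromere and was used to separate the sides. The short arm side had 926 peaks, 38.3 per Mb, with 25.1 protein-coding genes per Mb. The long arm side had 2515 peaks, 81.3 per Mb, with 26.0 protein-coding genes per Mb. The long arm density was 2.12 times that of the short arm (interval 1.97 to 2.29). In the gene-free stretch there were 70 peaks, 19.99 per Mb, of which 3 were high.

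The difference between arms was present in each place a peak could lie. Peaks within 1000 bp of the ends of protein-coding and lncRNA genes, called boundary peaks, numbered 13.2 per Mb on the short arm side and 22.7 on the long arm side. Peaks that lay inside genes only numbered 19.3 and 40.5 per Mb. Peaks outside genes numbered 5.87 and 18.1 per Mb, which was the largest ratio of the 3 places. All of these densities are per Mb of the whole side. How much of each side lies in each place was not measured. The share of high peaks was 15.1% on the short arm side (interval 12.96 to 17.6%) and 15.4% on the long arm side (14.0 to 16.9%), and these intervals overlap. Thus peaks were more numerous on the long arm, with a similar share of high ones at this cut. Within each place that share was slightly higher on the long arm side, with overlapping intervals. With peaks of maximum coverage 3 or more the density ratio was 2.50, against 2.12 with all peaks.

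**Figure D2:**
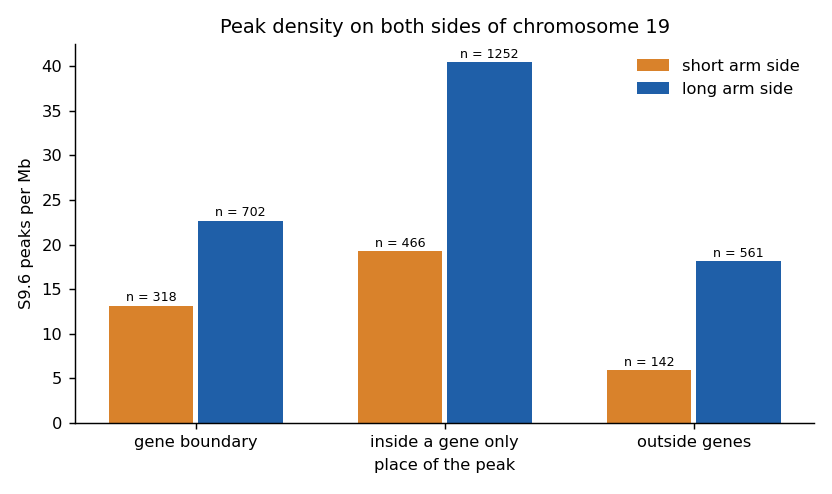
Peaks per Mb on the short and the long arm side of chromosome 19 by place of the peak, with the number of peaks above each bar. The long arm side is higher at gene boundaries, inside genes and outside genes, by the largest factor outside genes (18.1 against 5.87 per Mb). Densities are per Mb of the whole side and not of the place.

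Genes showed the same order. Of 606 protein-coding genes on the short arm side, 269 (44.4%, interval 40.5 to 48.4%) had a boundary peak, and of 803 on the long arm side, 475 did (59.2%, interval 55.7 to 62.5%). Over the whole chromosome the share was 52.8%. Without ZNF and ZFP genes, the shares were 48.2% of 523 genes and 66.5% of 635. Among ZNF and ZFP genes alone they were 20.5% of 83 and 31.5% of 168, with intervals of 13.2 to 30.4% and 25 to 38.9% that overlap.

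In 59 windows of 1 Mb, numbered from the end of the short arm, peaks ranged from 1 to 153 with a median of 53. The 5 windows with most peaks all lay on the long arm: window 34 (chr19:33000001-34000000) with 153, window 42 with 144, window 41 with 142, window 36 with 140 and window 46 with 136. Of the 11 windows with 100 or more peaks, 10 were on the long arm side, and the exception was window 2 with exactly 100. By summed signal the order changed, and window 41 was first with 264797. The fewest peaks among windows that hold a gene were 1 in window 21, 7 in window 22, 11 in window 23 and in window 25, and 12 in window 10. Windows 21 to 25 together had 9 peaks per Mb, and 32 of their 34 protein-coding genes were ZNF genes.

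Window 34 was rich in peaks but not in genes. It holds PEPD, a dipeptidase that cleaves proline-containing dipeptides, CHST8, a sulfotransferase, CEBPA, a transcription factor of lung and myeloid cells, and 7 other protein-coding genes. All 10 of its protein-coding genes had a boundary peak. PEPD had 33 peaks over its 134.8 kb span and CHST8 25, but their heights were low, with a median maximum of 3 for each. CEBPA itself had 2 peaks, both with a maximum of 3. The highest peak of the window, maximum 16 and total 13813, covered 4565 bp at chr19:33174456-33179020, over one edge of the WDR88 span and the whole of the threonine tRNA gene TRT-AGT1-3. Windows 33 and 34 together had 125 peaks per Mb with 10 protein-coding genes per Mb, and 19 of 20 genes had a boundary peak.

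Across windows, peaks and protein-coding genes were loosely related. Spearman's rho was 0.33 over 59 windows, 0.69 over the 24 windows of the short arm side and 0.26 over the 34 of the long arm side. When ZNF and ZFP genes were not counted, the values were 0.48, 0.83 and 0.50. The windows are neighbours in 1 library, and these values are a description.

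A pair of stretches on the long arm show how peaks and gene density could diverge. They were singled out after the window values were seen. Windows 29 to 32 hold 9 protein-coding genes, among them the transcription factor genes ZNF536 and TSHZ3, and had 272 peaks, 68 per Mb. Most were low peaks away from gene ends: 3.31% were high, 5.51% touched a boundary and 47.4% lay outside genes. Even so, 6 of the 9 protein-coding genes had a boundary peak. ZNF536 carried 47 peaks over 488 kb, the most of any gene on the chromosome, with a median maximum of 2, a highest of 5 and no boundary peak. The lncRNA VSTM2B-DT had 31, with a highest maximum of 3. Windows 53 to 55 were the reverse in density, with 29.7 protein-coding genes per Mb and 18 peaks per Mb. Of their peaks, 33.3% touched a boundary, but only 16 of their 89 protein-coding genes (18.0%) had a boundary peak. These windows hold part of a ZNF run, the microRNA cluster described further on and much of the leukocyte receptor complex.

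**Figure D3:**
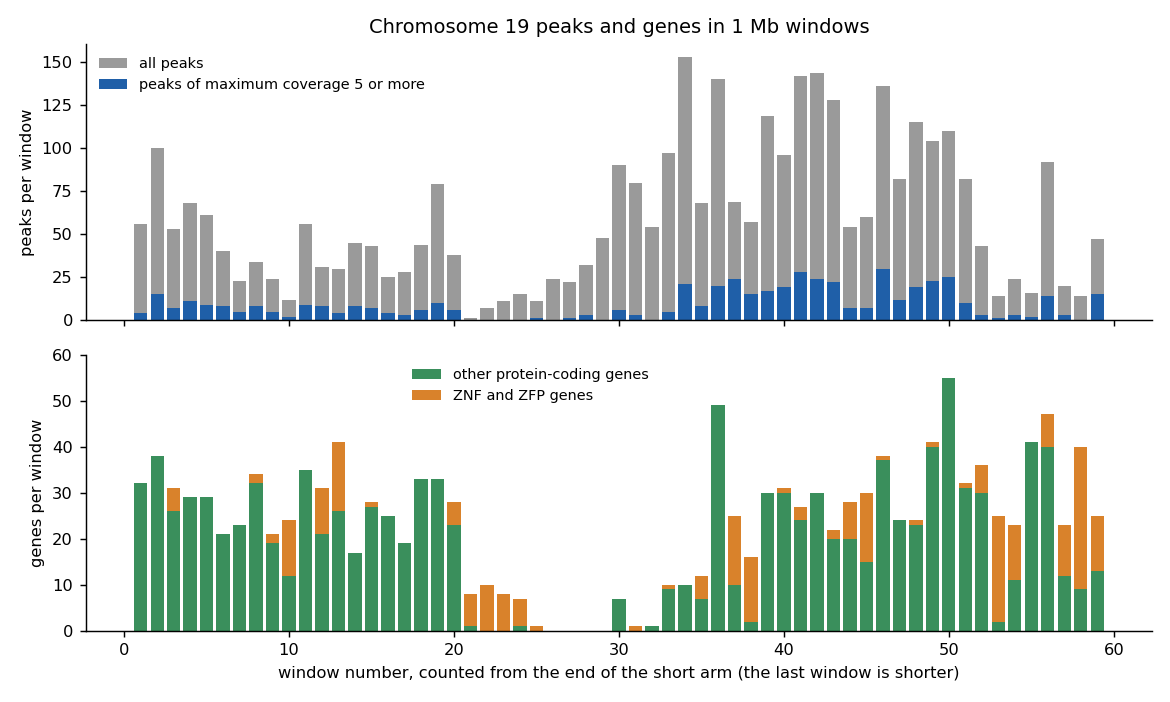
Peaks per 1 Mb window of chromosome 19 (top, high peaks in blue) and protein-coding genes per window (bottom, ZNF and ZFP genes in orange), by window number from the end of the short arm. Windows 34, 36, 41 and 42 reach 140 peaks or more. Windows 21 to 25, with 6.8 protein-coding genes per Mb, mostly ZNF, and windows 53 to 55, with 29.7, stay at 24 or fewer.

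Relative to genes, 1020 peaks (29.1%) touched a boundary, 1718 (48.9%) lay inside a gene only and 773 (22.02%) outside genes. On the other chromosomes 22.8% touched a boundary. Gene boundaries are also denser on chromosome 19, and the share of sequence within 1000 bp of one was not measured. Height went with place: 32.3% of boundary peaks were high (interval 29.5 to 35.2%), against 8.27% of peaks inside genes only (7.05 to 9.66%) and 7.63% of those outside genes (5.96 to 9.72%). The share at a boundary was 18.3% at a maximum of 1 or 2, 25.6% at 3, 34.8% at 4, 58.7% at 5 to 9 and 74.1% at 10 or more (86 of 116, interval 65.5 to 81.2%). On the other chromosomes the shares were 12.7%, 24.6%, 40.9%, 62.7% and 53.4%. Chromosome 19 was thus higher at a maximum of 10 or more, where the intervals lay apart (49.1 to 57.6% elsewhere), and at 1 or 2. It was lower at 4 and at 5 to 9, where the intervals of both groups overlap.

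Many boundary peaks served several genes. Of the 1020, 276 touched the boundaries of 2 genes and 28 of 3 or more. Of the peaks shared by 2 genes 48.6% were high, against 25.4% of the 716 that touched 1 gene.

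Of 1409 protein-coding genes on chromosome 19, 744 (52.8%, interval 50.2 to 55.4%) had a boundary peak, against 39.2% (38.5 to 39.9%) on the other chromosomes and 40.1% over chromosomes 1 to 22 and X. Chromosome 19 ranked 4 of 23 in this share, after chromosome 22 with 59.2%, chromosome 16 with 58.2% and chromosome 17 with 54.7%, and chromosome 20 had 52.7%. A peak anywhere over the span extended by 1000 bp was present in 966 (68.6%). A high boundary peak was present in 366 (26.0%). Of the 1409, 443 had no peak over the span, 366 had 1, 451 had 2 to 4, 119 had 5 to 9 and 30 had 10 or more. Among 475 lncRNA genes 38.5% had a boundary peak, against 17.6% elsewhere.

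Where the strand was known, starts carried peaks more often than ends. Of 1184 protein-coding genes with a known strand, 45.8% had a peak within 1000 bp of the start, against 35.2% elsewhere. Ends had one in 24.9% (interval 22.5 to 27.5%), against 10.4% elsewhere (9.87 to 10.9%), a ratio of 2.41. An end can lie beside the start of a neighbouring gene. For genes of 5 kb or more whose end had no other boundary within 2000 bp, the shares were 13.8% of 647 ends (11.3 to 16.6%) and 6.09% elsewhere (5.62 to 6.60%).

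Around isolated starts, the median summit on chromosome 19 lay further upstream. A summit is the middle of the region of maximum coverage, and 239 summits lay within 2000 bp of the starts of 479 genes of 10 kb or more with no other boundary that near. Of these, 43.9% were downstream of the start (interval 37.8 to 50.3%), against 52.0% of 2323 elsewhere (49.97 to 54.0%), and these intervals overlap by a narrow margin. The median position was -74 bp on chromosome 19 and 22 bp elsewhere. The first 200 bp downstream held 8.79% of summits, against 16.2% elsewhere, while the 200 bp upstream held 20.1% and 19.7%.

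Promoters with a peak were CpG-rich. A peak overlapped 652 of 1899 promoter windows (34.3%), against 20.9% on the other chromosomes. The share was 6.47% for windows with 0 to 4 CpG, 16.5% with 5 to 9, 26.8% with 10 to 19, 51.2% with 20 to 29 and 48.6% with 30 or more. The other chromosomes had 2.22%, 7.63%, 24.4%, 39.2% and 37.7%, so the intervals lay apart in every class but 10 to 19 CpG. Windows with a peak had a median of 26 CpG and 65.3% GC, against 14 CpG and 61.0% GC without one. CCGCCC occurred in 75.9% of windows with a peak and 54.4% without. TATAAA, on both strands, occurred in 5.37% and 7.30%, and in 11.6% of all promoter windows. GC skew, the excess of G over C on the gene strand, had a median of 0.01 in windows with and without a peak.

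**Figure D4:**
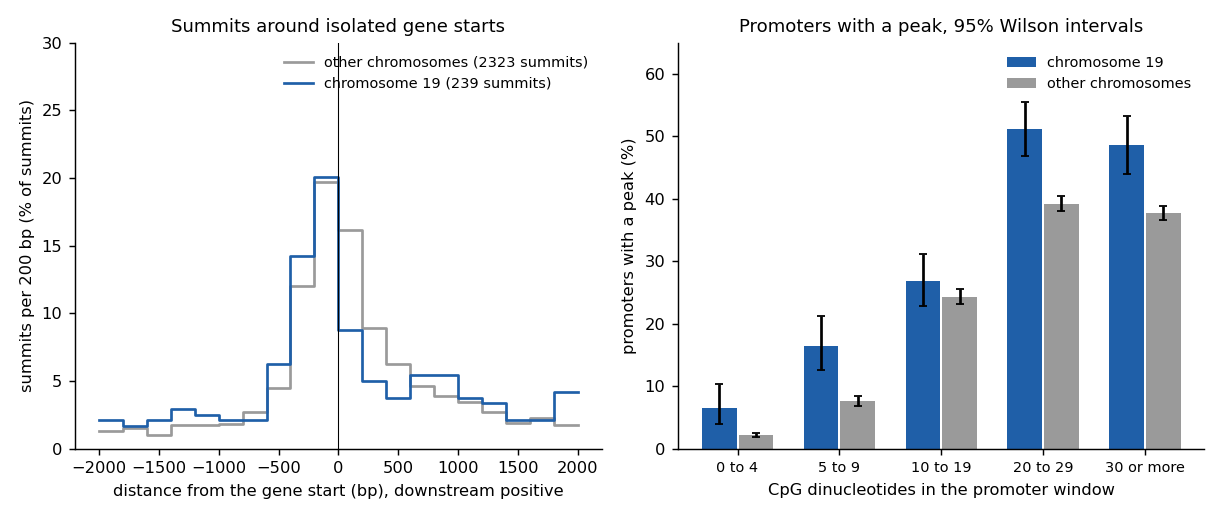
Positions of summits around isolated gene starts in bins of 200 bp, as a percent of the summits of each group (left), and the share of promoter windows with a peak by CpG count, with 95% Wilson intervals (right). The chromosome 19 curve is lower just downstream of the start (8.79% against 16.2%), and its bars go from 6.47% to 51.2%.

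The tallest peak of the chromosome stood at the start of CIC. At chr19:42268116-42269207 it was 1092 bp wide with a maximum of 37, a total of 20941 and a mean coverage of 19.2, and the median mean coverage of all chromosome 19 peaks was 1.59. A further 20 peaks followed through the 27.3 kb gene, with maxima of 2 to 9, so that CIC had 71.8 peaks per 100 kb. The second tallest, maximum 32 and total 12583, lay inside LMTK3, a membrane kinase gene, at chr19:48491377-48493871, away from the boundaries of the gene. ZNF574 held a peak of 22 inside its span in the same way, at chr19:42075304-42077805.

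Boundary peaks of 20 to 30 stood at genes of varied roles. The peak of 30 between the end of NECTIN2, a cell adhesion molecule gene, and TOMM40 was 1220 bp wide and covered the TOMM40 start. RPS19 and AP2A1 had peaks of 24. PRMT1 had a peak of 23 that spread over 3476 bp, with a total of 22131. HNRNPUL1, an RNA-binding protein gene, had a peak of 23 and a total of 15071. A peak of 22 and total 19584 touched both RRAS, a small GTPase gene, and SCAF1, and another of 22 touched both NDUFA11, a subunit of respiratory complex I, and VMAC. OPA3 had a peak of 20, as did CEP89 and FAAP24, which share theirs, and FAAP24 encodes a component of the Fanconi anaemia core complex.

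Next came peaks of 17 to 19. The splicing factor gene U2AF2 and its neighbour CCDC106 shared a peak of 19, and KMT5C, a histone H4 methyltransferase gene, had another. The shared one covered the U2AF2 promoter window but no base of the CCDC106 windows. C19orf38 and TMED1 shared a peak of 18, ODAD3 and PRKCSH shared one of 18, and NAPA, which encodes a vesicle fusion factor, had one of 18. PLAUR, the urokinase receptor, and the lncRNA LOC124904724 shared a peak of 17, and the lncRNA LIPE-AS1 had one of 17. The peak at PLAUR covered the LOC124904724 window but no base of the PLAUR window. In this group of 25 genes, 16 shared their peak with another member. AKT1S1 and TBC1D17 shared a peak with a total of 13767, among the 10 highest totals, but with a maximum of 11.

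Of the 10 highest totals, 3 belonged to broad domains in a zinc finger region. The peak with the highest total, 38954, was 6148 bp wide with a maximum of 17 at chr19:37292107-37298254, between the ends of LOC284412 and ZNF875, and touched no gene boundary. Within 50 kb on either side, 19 peaks including it covered 27838 bp, and 13 of them were high. Nearer the centromere in the same ZNF run, the lncRNA CYKILR carried 17 peaks over 52.2 kb, of which 15 were high. Their median maximum was 7, against 3 for the chromosome. The widest peak, 6509 bp with a total of 25697 at chr19:36270738-36277246, lay inside CYKILR, and so did a peak of 3252 bp with a total of 16536. CYKILR thus differed from CIC: its peaks were broad, with a median width of 1499 bp against 757 bp at CIC, and their maxima of 3 to 13 did not single out the gene's ends.

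Zinc finger genes had few boundary peaks. Of 251 ZNF and ZFP genes, 70 (27.9%, interval 22.7 to 33.7%) had one, against 674 of the 1158 other protein-coding genes of the chromosome (58.2%, 55.3 to 61.0%). ZNF and ZFP genes of other chromosomes had one in 120 of 278 (43.2%, 37.5 to 49.0%). The share was 24.9% for the 217 genes in runs of 8 or more members and 47.1% (31.5 to 63.3%) for the 34 outside such runs. A high boundary peak was present in 24 of the 251. ZNF524 had the tallest, a peak of 15, followed by ZNF146 and ZNF181 with 13 each, while ZFP28 and ZFP30 had none.

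Runs of zinc finger genes differed among themselves. There were 9 runs, numbered from the short arm end. Run 3, from ZNF101 to ZNF486, had no boundary peak at its 8 genes. Run 4, from ZNF737 to ZNF254, had 4 of 29 and 9.45 peaks per Mb, and run 7, from ZNF175 to ZNF331, had 5 of 39 and 15.4 peaks per Mb. Run 9, at the end of the long arm from ZNF264 to ZNF446, had 16 of 43 and 31.6 peaks per Mb. Run 5, chr19:36182060-37779586 from ZNF565 to ZNF573, held the broad domains described above: 77 peaks, 48.2 per Mb, of which 32 were high. Yet 19.5% of its peaks touched a boundary, and 10 of its 29 genes had one. Many zinc finger genes resemble each other in sequence, and the share of reads with more than 1 place to map is not given in the sources used here.

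Several clusters of immune, receptor and hydroxylase genes had 0 or 1 boundary peak, beside the 52.8% of all protein-coding genes. The leukocyte receptor complex, with the LILR and KIR receptor genes of myeloid and natural killer cells, had 0 of 22 (interval up to 14.9%), with FCAR and GP6 among them. Its stretch of the chromosome, chr19:54216278-55038264, had 8 peaks with a median maximum of 2 and a highest of 4. A further 64 peaks lay on 15 alternate sequences named for chromosome 19, several of which carry other haplotypes of these genes, with a highest maximum of 14. How reads were shared between the chromosome and these sequences was not tested. NLRP genes, which encode inflammasome sensors and oocyte proteins, had 0 of 9, and NLRP11 and NLRP12 are examples. The CYP4F fatty acid hydroxylases had 0 of 6, with CYP4F11 and CYP4F12 among them, and CD209, CLEC4G and their neighbours had 0 of 4. Olfactory receptor genes had 1 of 19, a peak of 2 at OR10H1. SIGLEC genes had more, 5 of 14 (interval 16.3 to 61.2%), none higher than 3, with CD33, MAG and SIGLEC11 among them.

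Other tandem families were mixed, and the intervals of all 8 that follow include the 52.8% of all protein-coding genes. Kallikrein protease genes had 6 of 15, led by KLK1, KLK6 and KLK11 with peaks of 4. CEACAM genes had 6 of 12, led by CEACAM5, an adhesion molecule of epithelia, with a peak of 8, then CEACAM3 and CEACAM19 with 4. Pregnancy-specific glycoprotein genes had 3 of 10, at PSG8, PSG1 and PSG6 with peaks of 3. CYP2 genes had 3 of 6, with 5 at CYP2S1 and CYP2F1. Chorionic gonadotropin beta genes had 4 of 7, led by CGB7 with 5. Interferon lambda genes had 1 of 3, at IFNL2 with 3, galectin genes 2 of 6, and ICAM genes 1 of 4, where ICAM3 had a peak of 7. PSG, CGB and CYP2A members are near-identical copies, and which copy a read came from is uncertain.

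Several lists of broadly expressed genes had boundary peaks more often than the 52.8% of all protein-coding genes. The lists were chosen with earlier results of these data known, and no list was tested. All 13 ribosomal protein genes had one (interval 77.2 to 100%), whereas 36 of 70 did on other chromosomes. RPS19 led with 24, then RPL28 with 9 and RPL36 with 8, and the other 10 reached 2 to 8. All 4 mitochondrial ribosomal protein genes had one, led by MRPL54 with 7, but with so few genes the interval, 51.01 to 100%, includes 52.8%. Splicing and RNA processing genes had 25 of 31, of which 21 had a high peak against 26.0% of all protein-coding genes. PRMT1, HNRNPUL1 and SCAF1 led, and HNRNPM and LSM7 had none. Genes of respiration and mitochondrial import had 17 of 20, led by TOMM40, NDUFA11 and the electron transfer flavoprotein gene ETFB with 12, but 7 had a high peak. COX6B1 and COX6B2 had none.

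Chromatin and DNA repair genes had 18 of 26. The histone demethylase gene KDM4B led with 14, followed by the chromatin remodelling gene GATAD2A and the arginine methyltransferase gene CARM1 with 13 each. CHAF1A, a histone chaperone gene, had none. The list of translation and chaperone genes, which also held genes of other roles such as BAX and FTL, had 12 of 18. It was led by TBCB with 14, GPI with 13 and CALM3 with 10, of which GPI and CALM3 have other roles. In the chromatin and translation lists, too, the intervals, 50.01 to 83.5% and 43.7 to 83.7%, include the 52.8% of all protein-coding genes.

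Genes of growth signalling and cancer had a boundary peak in 24 of 30 (interval 62.7 to 90.5%), beside the 52.8% of all protein-coding genes. CIC led with 37, RRAS had 22 and the elongation factor gene ELL 15. The insulin receptor gene INSR and GNA11, a G protein subunit gene, had none. STK11 and KEAP1, tumour suppressor genes known to be mutated in A549, had 2 peaks each, with maxima of 2 at STK11 and of 2 and 3 at KEAP1. CCNE1, which encodes cyclin E, had a narrow boundary peak of 8 and a second of 2 inside. AP-1 and immediate early genes had 7 of 8, counting KLF16 with a peak of 3, whose place among such genes is uncertain. The interval, 52.9 to 97.8%, has a lower end close to 52.8%, so its place above that share rests on single genes. JUND, an AP-1 subunit, had peaks of 12 and 6, both under 400 bp wide. JUNB had a peak of 6 that was 2660 bp wide and one of 4. IER2 had a highest peak of 6, and KLF2 had none.

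The APOE region and tissue lists spanned the range on both sides of the 52.8% of all protein-coding genes. All 15 listed genes from BCL3 to MARK4 had a boundary peak (interval 79.6 to 100%). These genes were picked by name, with none between GEMIN7 and MARK4, and some share a peak, as APOC4 and APOC2 do. The share is thus that of the list and not of the whole region. NECTIN2 and TOMM40, which share the peak of 30, led, followed by RELB, an NF-kappaB subunit, with 7. APOE itself, a lipid carrier gene, had peaks of 4 and 3. Tissue genes of muscle, liver and blood had 10 of 29 (interval 19.9 to 52.7%), led by FXYD1 with 7, then APOE and APOC1 with 4. Leukocyte markers had 11 of 36 (18.0 to 46.9%), and PLAUR with 17 was the one of them with a high peak. That peak covers the start of LOC124904724 and no base of the PLAUR promoter window. Innate immune signalling genes had 11 of 32 (20.4 to 51.7%), and BST2 and C3 had none. NECTIN2 led through the peak of 30, which covers the TOMM40 start and no base of the NECTIN2 promoter window. UBE2M followed with 10 and IRF3, the interferon response factor, with 8. Neuron genes had 18 of 28, with an interval of 45.8 to 79.3% that includes 52.8%, led by SYT3 and SHANK1, which share a peak of 17, and RAB3A with 11.

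**Figure D5:**
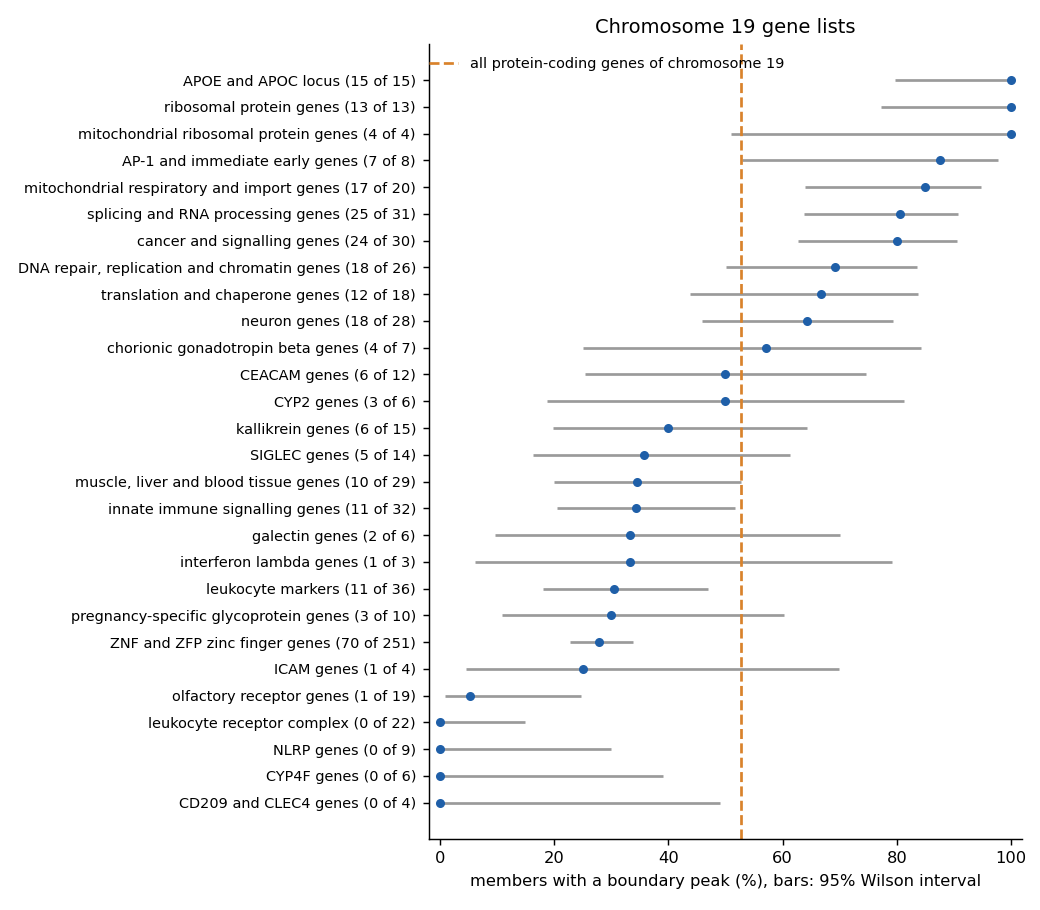
Share of members with a boundary peak for 28 lists of protein-coding genes on chromosome 19, with 95% Wilson intervals. The dashed line marks the 52.8% of all protein-coding genes of the chromosome. The leukocyte receptor complex, NLRP, CYP4F and CD209 lists are at 0, ZNF and ZFP genes at 27.9%, and ribosomal protein genes and the listed genes of the APOE region at 100%.

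Small RNA genes were examined in the same way, by peaks within 1000 bp of their own ends. Of 141 microRNA genes, 41 (29.1%) had a boundary peak, against 17.4% elsewhere. The primate-specific microRNA cluster of the long arm, chr19:53666679-53762430, had 3 peaks with a maximum of 2, which touched 5 of its 46 genes, among them MIR526A1, MIR520C and MIR523. The other 95 microRNA genes had 36 (37.9%). MIR3190 and MIR3191, which overlap inside BBC3, and MIR3188 beside JUND had peaks of 12. MIR23A, MIR27A and MIR24-2 shared a peak of 4, and their host MIR23AHG had 4 peaks with maxima of 2 to 10. Of 28 small nuclear RNA genes, nearly all of them SNAR genes, 15 (53.6%, 35.8 to 70.5%) carried a boundary peak. Elsewhere 34.1% of 126 did (26.4 to 42.8%), and these intervals overlap. SNAR-C3 led with 7, and the median was 3, against 7 elsewhere. RNU6-2 and RNU6-9 had none. The genes elsewhere were not split by kind, so unlike kinds of small nuclear RNA gene may be compared. SNAR genes are near-identical copies, so the copy that gave each peak is uncertain. tRNA genes had 5 of 7 (interval 35.9 to 91.8%), against 43.3% elsewhere, led by TRT-AGT1-3 with 16 and TRI-TAT1-1 with 9. snoRNA genes had 10 of 28, against 9.08% elsewhere, and SNORD32A and its neighbours inside RPL13A shared a peak of 3.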

How the data were processed

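The authors deposited 1 peak list for the S9.6 library, with the total signal and maximum coverage of each peak as whole numbers in the 6-column layout of SEACR. Per the submitters' processing notes, the tools were SEACR 1.3, deepTools 3.5.2, bedtools 2.30.0, SAMtools 1.9, Bowtie2 2.4.2 and fastp 0.23.2, with the build GRCh38. The roles of these tools, the threshold and the control were not given in the sources used here, and the number of reads is unknown, so a gene without a peak may have signal under the threshold. Gene spans and classes were those of RefSeq on GRCh38.p14, and strand and promoters from its promoter table. The table lists alternate-haplotype genes under chromosome 19 with their own coordinates, so the 73 genes (42 protein-coding) starting before 280 kb were left out, and 2626 remained. Other chromosomes were not corrected in this way. Overlap needed 1 base, and a ZNF run needed 8 genes with gaps of at most 300 kb. Python 3.11.15, pandas 2.3.3 and scipy 1.17.1 were used, and the overlap code was checked on simulated intervals. The members and the 33 gene lists were chosen with earlier results of these data known. Named genes were the 25 with the tallest boundary peak, the 3 tallest and first 2 without a peak in alphabetical order of each list, and the 5 with most peaks. The rule also named the 10 peaks highest in total or maximum and the 5 windows with most and fewest peaks. Genes named beyond this rule were chosen after their values were seen. Some genes the rule chose are not reported here.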

Additional observations from a re-analysis of the deposited data

How the results depend on the processing

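No leave-one-out and no paired analysis was possible because there was 1 library. Of 36 alternatives, 18 left a value within its counting interval, 18 moved it and 0 reversed its direction. A reversal could be called only for the ratios and the window correlation. The ZNF gene share, the share of peaks at a boundary and the median maximum coverage have no direction to reverse. The alternatives for the arms, for gene ends and for genes in the promoter table were added after seeing the data. The ratio of peak density to the other chromosomes, 4.21, was 5.43 with peaks of maximum coverage 3 or more and 7.01 with 5 or more. It was 4.05 without stretches of 1 Mb that held neither gene nor peak, 4.48 in covered bases and 1.09 per protein-coding gene. The ratio of gene shares with a boundary peak, 1.35, was 1.91 with peaks of 5 or more. The share of ZNF and ZFP genes was 20.7% at 3 or more and 9.56% at 5 or more. The other protein-coding genes of chromosome 19 then stood at 48.4% and 29.5%. The share of peaks at a boundary was 37.0% at 3 or more and 62.1% at 5 or more. It was 22.3% within 500 bp, 38.1% within 2000 bp and 23.9% by the middle of the maximum region. The density ratio of long to short arm, 2.12, was 2.50 at 3 or more, 2.32 in covered bases and 2.60 in total signal. The ratio of their gene shares, 1.33, was 1.69 at 5 or more. The ratio of end shares, 2.41, was 3.08 at 3 or more. Most peaks rest on a maximum of 2 or 3, so a missing low peak may be a matter of depth.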
